A study of Mus musculus with 3 samples.

Results

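The mitochondrial carrier family Slc25 was measured in mouse cells by 50 probe sets of 28943 on the array, chosen as every probe set whose only gene symbol in the platform's probe table was Slc25a followed by a number. They named 46 genes of 19938 measured. Slc25a5 had 3 probe sets, and Slc25a36 and Slc25a40 had more than 1 each, whose log2 values were averaged. Total RNA was hybridised to 3 single-colour arrays, 1 array per sample. The fibroblast sample is labelled as mouse fibroblasts in culture. The DiBA sample is labelled as cultured cells of a type named DiBA, and the series title refers to brown adipocytes made by direct conversion. The BA sample is labelled with brown adipose tissue as its source and as a cultured sample in its description, so the labels do not settle whether it was tissue or cells. Genotype, strain, age, the origin of the fibroblasts and the means of conversion are not given in the labels, which list no treatment.

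Carriers of this family sit in the inner membrane of mitochondria, apart from a few in the outer membrane or in peroxisomes, and exchange metabolites, nucleotides, cofactors and ions between the matrix and the cytosol. Most share a fold built from repeated pairs of membrane helices, and the uncoupling protein Ucp1 of brown fat belongs to the same superfamily under another symbol. In brown adipocytes, carriers supply the matrix with acylcarnitines and coenzyme A for fatty acid oxidation and export citrate for fatty acid synthesis.

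The promoters of 4 members that carry the main results are shown, as the 250 bases before the start of the gene in RefSeq on GRCm38.p6, 5′ to 3′ on the strand of the gene. Slc25a20 and Slc25a42 were among the carriers with the largest excess in DiBA and BA over fibroblasts, and Slc25a23 and Slc25a24 are related carriers that differed in opposite directions. Capitals mark the CCAAT box (CCAAT) and the GC box (GGGCGG) in either orientation. Slc25a23 has a further listed start, whose window is not shown and holds another GC box 14 bases before that start.
Slc25a20 (chr9:108661886-108662135, plus strand): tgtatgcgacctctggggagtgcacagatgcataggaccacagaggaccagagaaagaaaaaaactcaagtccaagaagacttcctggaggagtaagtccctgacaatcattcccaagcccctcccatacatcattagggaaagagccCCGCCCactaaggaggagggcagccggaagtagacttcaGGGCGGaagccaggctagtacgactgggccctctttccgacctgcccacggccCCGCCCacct
Slc25a42 (chr8:70212282-70212531, minus strand): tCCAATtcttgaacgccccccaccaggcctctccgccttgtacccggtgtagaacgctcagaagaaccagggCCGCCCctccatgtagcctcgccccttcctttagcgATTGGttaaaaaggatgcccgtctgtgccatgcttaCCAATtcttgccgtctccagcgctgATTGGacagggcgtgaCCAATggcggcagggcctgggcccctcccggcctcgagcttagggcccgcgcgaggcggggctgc
Slc25a23 (chr17:57059864-57060113, minus strand): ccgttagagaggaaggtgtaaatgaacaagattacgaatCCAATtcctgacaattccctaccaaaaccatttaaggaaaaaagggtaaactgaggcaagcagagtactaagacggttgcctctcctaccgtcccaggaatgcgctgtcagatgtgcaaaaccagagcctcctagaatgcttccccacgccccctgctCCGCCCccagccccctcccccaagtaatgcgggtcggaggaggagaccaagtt
Slc25a24 (chr3:109122899-109123148, plus strand): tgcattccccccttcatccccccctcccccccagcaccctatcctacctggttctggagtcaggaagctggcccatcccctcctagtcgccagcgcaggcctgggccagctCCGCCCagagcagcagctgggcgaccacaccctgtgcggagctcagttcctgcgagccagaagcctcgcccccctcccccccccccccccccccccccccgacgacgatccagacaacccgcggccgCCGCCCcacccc

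The GC box occurred in the promoters of 25 of 36 Slc25 genes with an entry (69.4%), against 35.4% of 27025 genes, and the CCAAT box in 18 of 36, against 37.5%. The 27025 genes were all those with a promoter entry, whether or not they were measured or reached the median intensity on the arrays. They were not matched to the carriers. The GC box was present in 8 of 10 members higher in BA than in fibroblasts and in 16 of 24 members without a 2-fold difference. The nuclear receptor half-site AGGTCA occurred in 4 of 36 (11.1%), against 15.8% of all genes. Its extended form TNAAGGTCA, associated with oestrogen-related receptors, was in 0 of 36, against 1.30%. The cAMP response element TGACGTCA was in 2 of 36 (5.56%), Slc25a25 and Slc25a36, against 1.77%. A gene with several listed starts was counted if any of their windows held a match. Both strands were searched, every TNAAGGTCA holds an AGGTCA, and a match is a description of letters in these windows only.

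On the arrays, the brown fat gene Ucp1 had an intensity of 23.5 in fibroblasts, 4598 in DiBA and 4995 in BA. All 10 brown adipocyte markers were at least 2-fold higher in both DiBA and BA than in fibroblasts. Dio2 was dim, at 44.04 in fibroblasts and 107.7 in both others. With intensities below the median of all probe sets raised to it, Dio2 differed by 0.63 (log2), which leaves 9 of the 10. Of 10 fibroblast markers, 8 were lower in DiBA and 9 in BA. All 10 skeletal muscle markers were also higher in both, with a summed intensity of 2235 in fibroblasts, 17465 in DiBA and 19548 in BA, including Ckm, muscle creatine kinase, at 94.7, 2489 and 2805. Of 10 macrophage markers, 9 were higher in DiBA and 8 in BA, with sums of 1178, 4327 and 4305, and of 10 endothelial markers, 8 and 9 were higher, with sums of 1213, 3673 and 4342 (fibroblasts, DiBA, BA). Of 7 erythroid markers, only Alas2 was higher, at 25.95, 260.02 and 340.2, and 4 of the 7 stayed under 69.2, the median intensity of all probe sets, in DiBA and in BA. None of 7 liver markers reached 69.2 on any array. The part of these other cell types in the results on carriers was not tested.

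Slc25 carriers were more often higher than lower in DiBA and BA against fibroblasts. Calls required 2-fold or more on the log2(intensity + 1) scale, a scale that understates the folds of dim genes, and an intensity of 69.2 (hereafter the level) on the higher array. In DiBA, 13 of 46 Slc25 genes (28.3%) were higher than in fibroblasts, against 8.54% of all measured genes, and 2 (4.35%) were lower, against 7.67%. In BA, 14 (30.4%) were higher than in fibroblasts, against 9.51%, and 2 were lower, against 9.59%. The shares of lower carriers did not exceed the background. The level was reached on at least 1 array by 35 of 46 carriers (76.1%) and by 58.7% of all genes. The median difference over all 46 carriers was 0.12 (log2) for both DiBA and BA against fibroblasts, and 0 over all measured genes in both. These medians rest on many exactly equal values: without genes of identical intensity on both arrays, they were 0.82 for 33 carriers in DiBA and 0.91 for 34 in BA, and -0.05 and -0.02 over all such genes. With 1 array per group, no difference has a replicate error and no test was possible. The comparisons with fibroblasts share the fibroblast array, and in these bulk samples fewer cells of a type and less RNA per cell cannot be told apart.

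**Figure D1:**
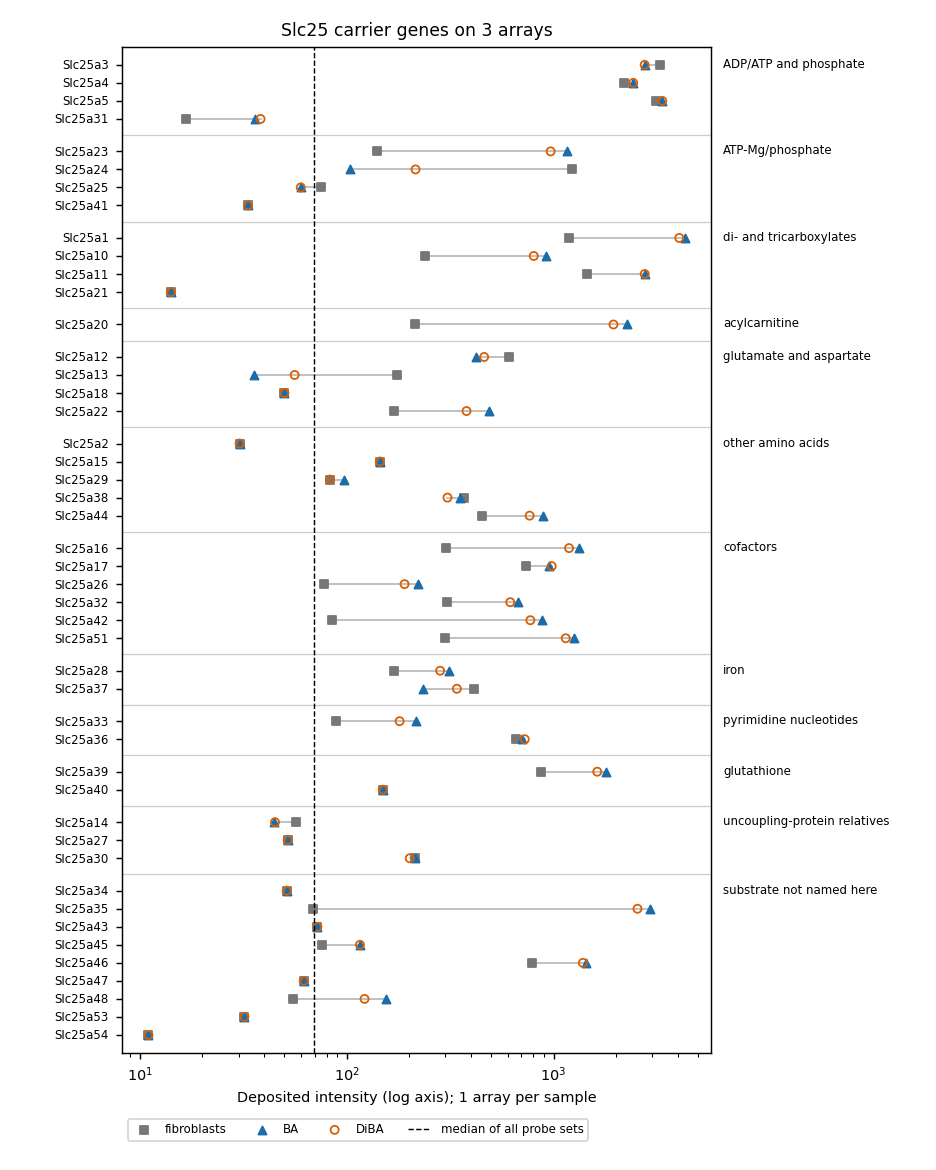
Intensity of each of the 46 Slc25 genes (log axis) in fibroblasts (squares), DiBA (open circles) and BA (triangles), 1 array each, grouped by substrate, with the median of all probe sets, 69.2, as a dashed line. DiBA and BA lie together on the right of fibroblasts for most cofactor, di- and tricarboxylate carriers, and on the left for Slc25a24 and Slc25a13; levels of different genes are not comparable.

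The carriers that feed fatty acid oxidation were among those furthest above fibroblasts. Slc25a20, the carnitine/acylcarnitine carrier that brings acyl groups into the matrix, had an intensity of 213 in fibroblasts, 1949.6 in DiBA and 2275 in BA, or 9.11-fold and 10.6-fold higher. The DiBA and BA arrays were both far above the fibroblast array and close to each other. The enzymes around it in a list of acylcarnitine genes differed alike for 3 of 4 measured. Cpt2, which releases acyl groups from carnitine inside mitochondria, was 10.9-fold higher in DiBA and 11.8-fold higher in BA, Crat, which acts on short acyl groups, 6.55-fold and 7.25-fold, and the carnitine uptake transporter Slc22a5, which was below the level in fibroblasts at 60.6, 5.65-fold and 6.63-fold. Cpt1a, the outer membrane carnitine palmitoyltransferase of many tissues, ran the other way, at 477 in fibroblasts, 395 in DiBA and 233 in BA. It was 2.04-fold lower in BA, just past the threshold, and not called in DiBA. Cpt1b, also on the list, was not measured, so Cpt1a alone does not describe that step.

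Of 8 listed cofactor carriers, 6 were measured, and 5 of these 6 were higher in both DiBA and BA. Slc25a42, which carries coenzyme A into the matrix, measured 85.3 in fibroblasts, 773 in DiBA and 877 in BA, 8.96-fold and 10.2-fold higher. Slc25a16, also linked to coenzyme A, stood at 301, 1189 and 1322, and Slc25a51, the NAD carrier, at 300.25, 1146 and 1251 in the same order of arrays. These 3 genes were therefore 3.81-fold or more above fibroblasts in DiBA.
Slc25a26, the carrier of the methyl donor S-adenosylmethionine, differed less, at 78.1, 190.4 and 221. Slc25a32, linked to folate and FAD, measured 305, 618 and 676 and lay just past the threshold in DiBA, at 2.02-fold, and short of it with each array centred on its median or a pseudocount of 16. The exception was Slc25a17, a cofactor carrier of peroxisomes rather than mitochondria, at 734, 980.03 and 948, at most 1.33-fold higher.

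Carriers of di- and tricarboxylates linked to the citric acid cycle were next. Slc25a1, the citrate carrier that exports citrate for fatty acid synthesis, had intensities of 1184 in fibroblasts, 4056 in DiBA and 4301 in BA, 3.42-fold and 3.63-fold higher. Slc25a10, the dicarboxylate carrier for malate and succinate, measured 240.3, 803 and 924, 3.33-fold and 3.83-fold higher. Slc25a11, the oxoglutarate carrier of the malate-aspartate shuttle, fell short of the threshold at 1451, 2760.03 and 2759, or 1.90-fold on both. Slc25a21, the oxodicarboxylate carrier, had 14.1 on all 3 arrays, far below the level. All of these genes but Slc25a21 thus had higher values in DiBA and BA.

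Among carriers of glutamate and aspartate the directions were split. Slc25a22, a glutamate carrier, measured 169.6 in fibroblasts, 379.7 in DiBA and 487 in BA, 2.23-fold and 2.86-fold higher. Slc25a13 (citrin), an aspartate/glutamate carrier of the malate-aspartate shuttle, was lower, at 175 in fibroblasts, 56.0 in DiBA and 35.7 in BA. Since the DiBA and BA values lay below the level, its folds of 3.09 and 4.80 became 2.51 for both when intensities below 69.2 were raised to it. The other aspartate/glutamate carrier, Slc25a12 (aralar), was 1.31-fold lower in DiBA and 1.44-fold lower in BA, at 607, 462 and 421, and did not reach the threshold. Slc25a18, a second glutamate carrier, had 50.02 on all 3 arrays.

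The ATP-Mg/phosphate carriers, which adjust the adenine nucleotide content of the matrix, held members far apart in opposite directions. Slc25a23 measured 139.6 in fibroblasts, 968 in DiBA and 1166 in BA, 6.89-fold and 8.30-fold higher. Slc25a24 measured 1232, 215 and 104, 5.70-fold lower in DiBA and 11.7-fold lower in BA, and all 3 values were above the level. The fibroblast array was thus the lowest of the 3 for Slc25a23 and the highest for Slc25a24. Slc25a25 lay near the level in fibroblasts at 74.8 and below it at 59.96 in both others, and Slc25a41 had 33.4 on all 3.

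The ADP/ATP and phosphate carriers, which serve ATP synthesis in every cell, differed little. Slc25a4, the ADP/ATP carrier of muscle and heart, had 2199.7 in fibroblasts and 2429 in both DiBA and BA, 1.10-fold higher. Slc25a5, its more widely expressed relative, was 1.07-fold higher in both over 3 probe sets, which differed from fibroblasts by 0.17, 0 and 0.12 (log2). Probe sets of Slc25a5 may share sequence with near-identical copies of the gene, so their separate values are uncertain. Slc25a3, the phosphate carrier, was 1.19-fold lower in both, at 3279.6 against 2759. Slc25a31, an ADP/ATP carrier of germ cells, was 2.22-fold and 2.08-fold higher but below the level on all 3 arrays, at 16.7, 38.3 and 35.9. None of these 4 genes was called, which for so few genes is near the share of calls over all genes.

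**Figure D2:**
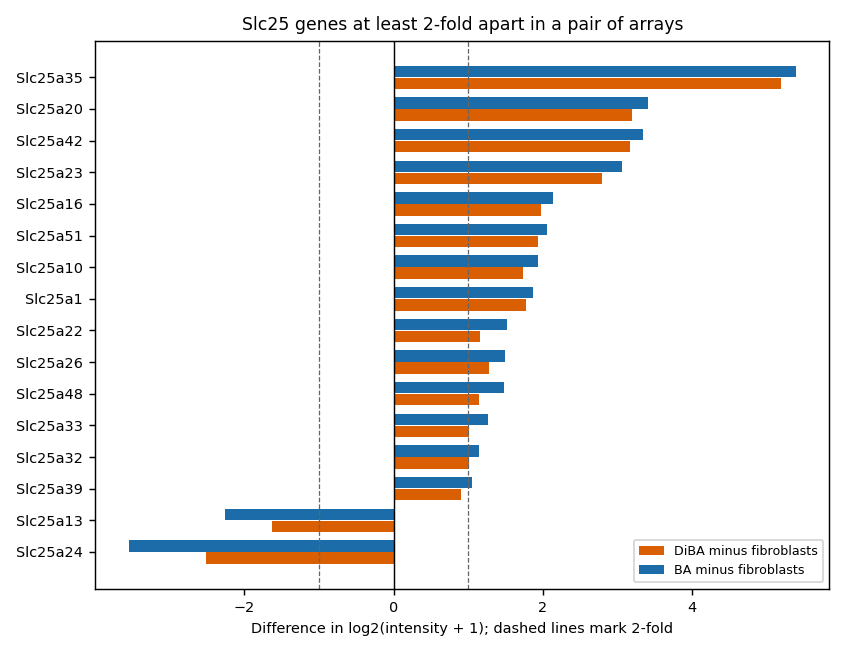
Difference from fibroblasts in log2(intensity + 1) for DiBA and BA of the 16 Slc25 genes called in at least 1 pair of arrays, 1 array per sample and no error bars. From Slc25a35 at 5.39 to Slc25a39 at 1.05 in BA, 14 genes are higher, while Slc25a13 and Slc25a24 are lower; for every gene shown the BA bar is the longer.

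Over all measured genes, 8.54% were higher and 7.67% lower in DiBA than in fibroblasts, and 9.51% and 9.59% in BA. Carriers of other amino acids had 0 of 5 members called, which is near these shares for so few genes. Slc25a44, which carries branched-chain amino acids into mitochondria, came closest to a call, at 451 in fibroblasts, 767 in DiBA and 893 in BA, 1.70-fold and 1.98-fold higher. The glycine carrier Slc25a38, which serves haem synthesis, measured 369.8, 307 and 354. Slc25a29, a carrier of basic amino acids, measured 83.0, 83.0 and 96.8, and the ornithine carriers Slc25a15 and Slc25a2 had the same value on all 3 arrays.
The mitoferrins, which bring iron into the matrix, differed in opposite directions without reaching 2-fold. Slc25a28 (mitoferrin 2) measured 169, 283 and 313, and Slc25a37 (mitoferrin 1, known from red cell precursors) measured 414, 341 and 234. Slc25a37 was 1.76-fold lower in BA than in fibroblasts. Of 7 erythroid markers, only Alas2, the first enzyme of haem synthesis in red cell precursors, was called higher in BA. A link of Slc25a37 to erythroid cells was not tested.

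Of the pyrimidine nucleotide carriers, Slc25a33 was called and Slc25a36 was not. Slc25a33 measured 88.8 in fibroblasts, 180.2 in DiBA and 215 in BA, 2.02-fold and 2.41-fold higher, with the call in DiBA lost under centring, quantile normalization or a pseudocount of 16. Slc25a36 measured 659, 726 and 704, at most 1.10-fold higher. Slc25a39, which carries glutathione, measured 868, 1627 and 1796, short of the threshold in DiBA at 1.87-fold and past it in BA at 2.07-fold. Its paralogue Slc25a40 had identical values on all 3 arrays in both of its probe sets. The relatives of uncoupling proteins, Slc25a14, Slc25a27 and Slc25a30, had 0 of 3 members called, near the share over all genes for so few members. Slc25a30 lay between 201.7 and 214.1 over the arrays. Slc25a14 measured 57.1, 45.02 and 44.6, and Slc25a27 had the same value below the level on all 3.

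The largest difference of the family was that of Slc25a35, a carrier whose substrate is not named here, at 68.7 in fibroblasts, 2546 in DiBA and 2922 in BA. These values are 36.6-fold and 42.0-fold above fibroblasts, and 36.3-fold and 41.7-fold with the floor of 69.2, since the fibroblast value lay just under it. Slc25a48, which also lay below the level in fibroblasts, measured 54.9, 122.02 and 155, 2.20-fold and 2.79-fold higher, or 1.75-fold and 2.23-fold with the floor. Slc25a46, an outer membrane protein of mitochondrial shape control, stayed short of 2-fold at 784, 1387 and 1440, and so did Slc25a45 at 76.2 and 115.9 in both others. Slc25a34, Slc25a43, Slc25a47, Slc25a53 and Slc25a54 had the same value on all 3 arrays, at or below 72.2.

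Identical values were frequent: 14 of 50 member probe sets (28.0%) had exactly the same intensity on all 3 arrays, against 33.4% of all probe sets, and 21 (42.0%) on DiBA and BA, against 47.3%. A difference of 0 therefore reflects the deposited values and does not measure how closely the samples match.

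Around the family, 26 other mitochondrial transporter symbols were listed and 20 were measured, of which 9 were higher and 1 lower in DiBA as well as in BA. Besides Ucp1, Mpc1, a subunit of the mitochondrial pyruvate carrier, was 7.97-fold and 8.10-fold higher in DiBA and BA than in fibroblasts, and Tspo of the outer membrane 4.89-fold and 5.40-fold. The sideroflexins, a separate family of mitochondrial proteins, had 5 measured members, of which 2 were higher and 1 lower on both arrays. Sfxn5 measured 101.9 in fibroblasts, 492 in DiBA and 607 in BA, and Sfxn4 measured 46.7, 129.8 and 174. Sfxn3 measured 937, 318 and 148, and Sfxn1 and Sfxn2 were not called. The outer membrane channels Vdac1, Vdac2 and Vdac3 differed by at most 1.31-fold.

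Subunits of the respiratory chain and ATP synthase, taken by symbol, numbered 78 genes. In BA 65 of them were higher than in fibroblasts and 1 was lower, the median was 1.77 (log2), with values at the quartiles that differed by 1.07. In DiBA 63 were higher and 1 lower, with quartiles 1.09 apart. Among 77 mitochondrial ribosomal protein genes, the BA array gave 34 higher calls and 0 lower calls against fibroblasts, with a median of 0.82 (log2). The DiBA array gave 22 and 0, with a median of 0.71. For the 46 carriers the median was 0.12 (log2) in both BA and DiBA, and the quartiles differed by 1.24 in BA and 1.11 in DiBA. Without identical values, the medians in BA were 0.91 for 34 carriers, 1.77 for 77 respiratory subunits and 0.93 for 74 ribosomal proteins. Leaving these values out removed a larger part of the carriers than of the other sets, so these medians are not compared on like terms. A test of these differences was not possible with 1 array per group.

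**Figure D3:**
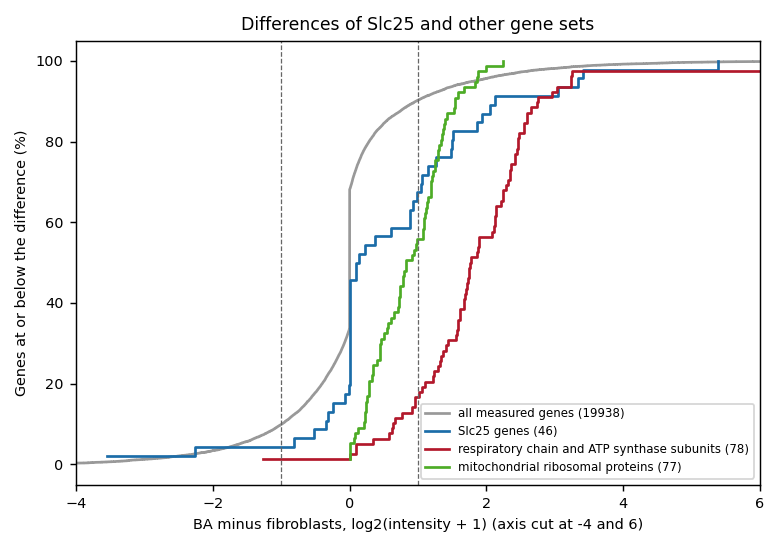
Cumulative share of genes (%) by their difference between BA and fibroblasts in log2(intensity + 1), for all 19938 measured genes, 46 Slc25 genes, 78 respiratory chain and ATP synthase subunits and 77 mitochondrial ribosomal proteins, 1 array per sample. The vertical step of Slc25 genes at 0 is made of 12 genes with equal values, and the curve then runs to the right of that of all genes.

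Few carriers differed by 2-fold between the deposited values of DiBA and BA. Of the 46, 17 had identical values on both arrays, which do not measure how closely the samples match. Only Slc25a24 was called, 2.06-fold higher in DiBA at 215 against 104 (2.17% of the 46, against 0.973% of all genes), and 0 carriers were called lower, as were 0 (0%) of all genes. Slc25a24 was just past the threshold, at 1.04 (log2), and just short of it with quantile normalization, at 0.9994, and with each array centred on its median, at 0.96. A share of 1 gene in 46 is near the background. Slc25a37 differed by 0.54 (log2), at 341 in DiBA against 234 in BA. Slc25a13 differed by 0.64, but both values lay below the level and the difference was 0 with the floor of 69.2. These 3 genes had their highest value in fibroblasts.

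Each of the 14 carriers higher in BA than in fibroblasts was slightly lower in DiBA than in BA, by 0.08 to 0.36 (log2). Since these genes were selected on the BA array, their sign against it is a description only. On the linear scale, DiBA lay 66.3% of the way from fibroblasts to BA for Slc25a22, 66.9% for Slc25a48 and 92.1% for Slc25a1, with a median of 83.2% over the 14 genes. The same median over all 1897 genes higher in BA than in fibroblasts was 83.7%, with quartiles of 77.0% and 90.1%, so the carriers lay where such genes lay in general. For the lower genes Slc25a24 and Slc25a13 the values were 90.2% and 85.4%, against a median of 89.8% over all 1913 lower genes.

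**Figure D4:**
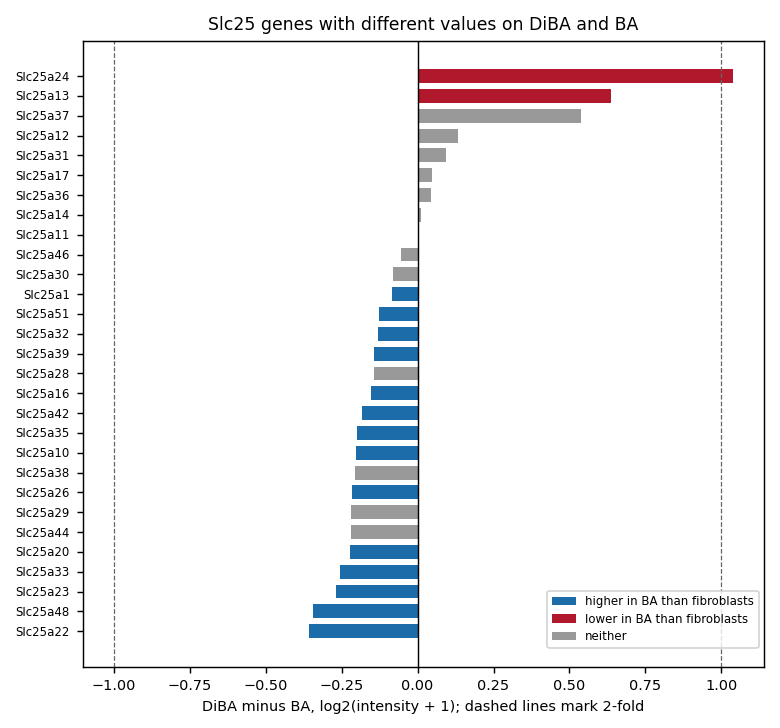
Difference of DiBA minus BA in log2(intensity + 1) for the 29 Slc25 genes with different values on both arrays, 1 array per sample, coloured by their call between BA and fibroblasts. Slc25a24 at 1.04 and Slc25a37 at 0.54 stand out to the right, as does Slc25a13 at 0.64, which is below the level on both arrays and at 0 with the floor of 69.2, and the genes higher in BA than in fibroblasts lie left of 0, down to Slc25a22 at -0.36.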

How the data were processed

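Gene expression was measured on 3 single-colour Affymetrix arrays. Linear intensities, 1 for each probe set on each array, were deposited by the authors. The submitters' processing notes name Affymetrix Expression Console. How probes were summarized, corrected and normalized is not given in the sources. The array medians were 67.8 (fibroblasts), 71.5 (DiBA) and 67.7 (BA), and no further normalization was applied. The probe table gave 1 symbol for 21789 probe sets and several for 1621, and did not list 5533. Symbols with several probe sets were averaged as log2(intensity + 1), with a pseudocount of 1. Calls needed 2-fold and a level of 69.2 on the higher array. This level was reached by 35 carriers against fibroblasts and by 33 for DiBA against BA. Groups came from the labels. Having 1 array per group limits the precision.

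Intensities, identities and calls are given for carriers called in any pair, those within 0.15 (log2) of the threshold, and the uncalled member of each substrate group with the largest difference between BA and fibroblasts. Intensities of further carriers, among them Slc25a3, Slc25a4, Slc25a29, Slc25a30, Slc25a37, Slc25a38 and Slc25a45, were added after their values were seen. Members and lists were chosen with earlier results of these data known. Of 48 listed carrier symbols, 2 were not measured. RefSeq promoters (GRCm38.p6) matched 36 of 46 carriers by symbol. The calling step was run on simulated data with an assumed noise and without identical values. That run checks the code and does not measure the error of calls on these arrays. Python 3.11.15 with pandas 2.3.3, numpy 2.4.6, scipy 1.17.1 and matplotlib 3.10.9 was used. Alternatives covered centring, quantile normalization, level filters, a floor, pseudocounts of 0 and 16, the highest probe set per gene and thresholds of 1.5-fold and 4-fold.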

Additional observations from a re-analysis of the deposited data

How the results depend on the processing

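Of 480 values of 20 single carriers under the alternatives, 461 stayed on their side of the call rule and 19 lost their call. Of the called values, 0 changed sign. The thresholds of 1.5-fold and 4-fold were not among these alternatives. Part of the 461 could not lose a call. Each of these carriers had 1 probe set, dropping the level filter removes no call, and uncalled values had none to lose. Among uncalled values, the difference of Slc25a11 between DiBA and BA went from 0.0006 to -0.08 with centred arrays and -0.04 with quantile normalization, and that of Slc25a13 from 0.64 to 0 with low values raised. Slc25a24 between DiBA and BA was no longer called with centred arrays, quantile normalization, a pseudocount of 16 or a level at the 75th percentile, which leaves 0 carriers higher in each case. In DiBA against fibroblasts, Slc25a33 lost its call with centred arrays (0.94, log2), quantile normalization (0.98) and a pseudocount of 16 (0.90), Slc25a32 with the first and the last (0.94 and 0.98), and Slc25a48 with low values raised to the median (0.81) and a pseudocount of 16 (0.96). The level at the 75th percentile left 1 carrier lower in DiBA and 1 in BA than in fibroblasts, without Slc25a13, took the higher calls of Slc25a26, Slc25a33 and Slc25a48 in both, and left 76 genes in all higher in DiBA than in BA. At 4-fold, 4 carriers were higher and 1 lower in DiBA, 6 were higher in BA, and 0 differed between DiBA and BA. Over all genes 4-fold gave 731 higher and 372 lower in DiBA, 862 higher and 674 lower in BA, and 33 higher in DiBA than in BA. At 1.5-fold, 2747 genes were lower in DiBA and 3049 in BA, and DiBA against BA had 456 higher and 11 lower. With no level filter 1 gene was lower in DiBA than in BA. Without genes of identical values the median of carriers moved from 0.12 to 0.82 in DiBA and to 0.91 in BA against fibroblasts, and from 0 to -0.14 for DiBA against BA. This alternative was chosen after seeing the data, as was counting each probe set on its own. Centring moved the median of all genes by -0.08 (log2) for DiBA against fibroblasts and against BA. No paired analysis was possible because each group holds 1 array. Signal near background limits Slc25a13, Slc25a35 and Slc25a48.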
